A study of Mus musculus with 4 samples.

Results

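A set of 9 genes of the interleukin-17 (IL-17) programme was followed in T cells from MC38 tumours of mice with and without a humanized FOXP3 gene. They were taken from the 26172 genes listed in the deposited matrices. They were chosen by name with earlier results of these data known, from genes that had led a group of gamma-delta T cells, so their levels and joint detection are given as descriptions without a test. MC38 is a mouse colon carcinoma line. It was grown in untreated wild-type (WT) mice and in untreated FOXP3 humanized mice of 10 weeks of age, and tumours were taken on day 20. Cells enriched on Percoll as tumour-infiltrating immune cells gave 1 cDNA library per genotype. The labels do not say how many mice a library holds or which part of the gene is humanized. With 1 library per genotype there is no replicate check, and genotype cannot be told apart from library or mouse.

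IL-17A and IL-17F are related secreted cytokines that act on epithelial and stromal cells and draw in neutrophils. Cells that make them are programmed by nuclear receptors, RORα among them, and respond to interleukin-23 and interleukin-1. Among them are CD4 Th17 cells and a subset of gamma-delta T cells, which leave the thymus already committed to IL-17 and are found in barrier tissues and tumours. The 9 genes cover the cytokines (Il17a, Il17f), the receptors for the inducing cytokines (Il23r, Il1r1), a homing receptor (Ccr6), the constant region of the T cell receptor delta chain (Trdc), the scavenger receptor of gamma-delta T cells (Scart1), a Src-family kinase (Blk) and the nuclear receptor RORα (Rora).

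The genes were read in T barcodes, defined as cell barcodes under 5000 UMIs with at least 1 UMI of Cd3e, Cd3d or Cd3g. A UMI is 1 counted transcript molecule. There were 96 T barcodes among 7691 in the wild-type library (1.25%, 1.01 to 1.52%) and 155 among 11087 in the humanized library (1.40%, 1.19 to 1.63%). They held 185429 and 279949 UMIs, with medians of 1700.5 and 1587 per barcode. Deep barcodes, with 5000 UMIs or more, numbered 6818 and 9894 and served as background. All 10 fixed T cell markers had UMIs in the T barcodes of each library, while Cd8a was at 0 in the wild-type ones. The 5 neutrophil markers were at 0 in both, and macrophage, dendritic, mast and epithelial markers had at most 4 UMIs per list, fibroblast markers 4 and 15, endothelial markers 25 and 15, and B cell markers 20 in each. Of the T barcodes, 12 wild-type and 21 humanized ones rested on a single CD3 UMI. Cell names are numbers rather than barcode sequences, so the 1551 names found in both libraries do not show shared cells. Intervals in brackets are 95% intervals that cover counting error only.

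Il17a and Il17f lie next to each other on chromosome 1, with 0 RefSeq genes between them, and were led by the same humanized barcodes. The 250 bases before their start sites are therefore shown, with those of Il23r, from the RefSeq promoter table (build GRCm38.p6, which is not the files' build). Capitals mark AGGTCA, or TGACCT on the other strand, the half-site bound by RORα.
Il17a, chr1:20730655-20730904, plus strand: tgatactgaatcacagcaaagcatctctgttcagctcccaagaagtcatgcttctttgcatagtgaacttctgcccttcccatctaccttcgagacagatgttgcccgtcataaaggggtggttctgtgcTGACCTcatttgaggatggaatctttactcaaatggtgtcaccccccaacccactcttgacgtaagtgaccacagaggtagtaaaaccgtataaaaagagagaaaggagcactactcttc
Il17f, chr1:20784271-20784520, minus strand: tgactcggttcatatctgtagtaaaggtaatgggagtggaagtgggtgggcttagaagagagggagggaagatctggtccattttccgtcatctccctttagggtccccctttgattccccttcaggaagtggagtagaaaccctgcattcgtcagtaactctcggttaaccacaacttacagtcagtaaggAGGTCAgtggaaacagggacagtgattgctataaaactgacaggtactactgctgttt
Il23r, chr6:67491856-67492105, minus strand: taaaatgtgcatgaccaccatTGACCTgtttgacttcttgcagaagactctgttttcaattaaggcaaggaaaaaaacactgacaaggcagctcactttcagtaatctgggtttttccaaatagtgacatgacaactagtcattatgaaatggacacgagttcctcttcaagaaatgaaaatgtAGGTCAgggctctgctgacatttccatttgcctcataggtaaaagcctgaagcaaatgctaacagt
The half-site began 120 bases before the start site of Il17a, 58 bases before that of Il17f, and 229 and 66 bases before that of Il23r. Of 6 members with an entry in the table, Ccr6 also held it in the window of 1 of its start sites, 44 bases before it, and Il1r1 and Rora did not. Trdc, Scart1 and Blk were not matched. The same letters occur in 14% of all 32851 windows of this length, and a match is a description and no evidence of binding.

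Il17a was detected in shares of T barcodes whose intervals overlap between the libraries, but the highest humanized barcodes held more of it than any wild-type one. An Il17a UMI was found in 16 of 96 wild-type T barcodes (16.7%, 9.84 to 25.6%) and in 30 of 155 humanized ones (19.4%, 13.5 to 26.5%), a difference within these intervals. Among those positive barcodes the wild-type ones ranged from 1 to 15 UMIs with a median of 3.5, and the humanized ones from 1 to 226 with a median of 4.5. A single UMI was held by 6 of the 16 wild-type and 7 of the 30 humanized positive barcodes. At least 10 UMIs were reached by 3 of the 16 and 12 of the 30. The ranges thus overlap, and the difference lies in the upper part of the humanized range. The sums were 85 and 700 UMIs, or 458 CPM (366 to 567) and 2500 CPM (2319 to 2693), where CPM is a gene's UMIs per 1000000 UMIs of all genes in the same barcodes. The log2 ratio of humanized over wild-type was 2.45 (2.12 to 2.79).

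A few humanized barcodes carried most of that sum. The top barcode held 226 UMIs, or 32.3% of all humanized Il17a UMIs, and the second held 141, so that 52.4% lay in 2 of 155 barcodes. In the wild-type library the top barcode held 17.6%, and 4 barcodes were needed to reach the 50% mark. Without the top barcode the log2 ratio was 1.90 (1.56 to 2.25), and without both it was 1.40 (1.05 to 1.76), with 333 humanized UMIs left. Thinning each barcode to 1000 UMIs gave 1.96, and weighting each barcode equally gave 1.815. The direction was the same in each of these, and the size was over 1.5-fold smaller on the linear scale with equal weights and without the pair of top barcodes.

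**Figure D1:**
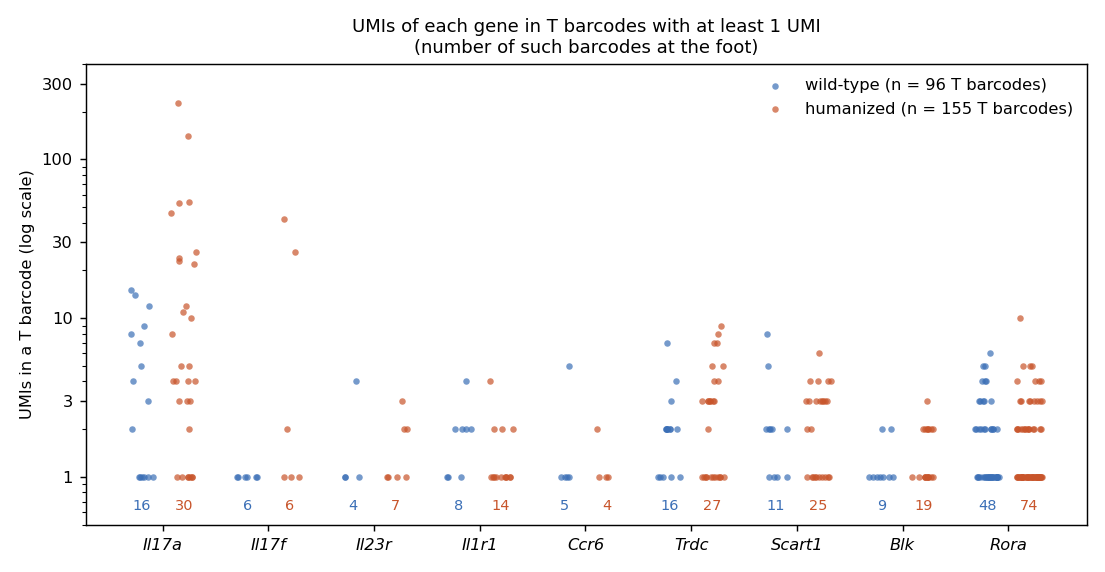
UMIs of each gene in T barcodes that hold at least 1 (points, log axis), in the wild-type library (blue, 96 T barcodes) and the humanized library (orange, 155), with the number of such barcodes at the foot. The humanized Il17a and Il17f points reach 226 and 42 UMIs, against 15 and 1 in the wild-type library, while the other genes stay at or under 10 UMIs in both.

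Il17f showed the same concentration in fewer cells. It was found in 6 T barcodes of each library, or 6.25% (2.33 to 13.1%) of wild-type and 3.87% (1.43 to 8.24%) of humanized ones. All 6 wild-type barcodes held 1 UMI each. The humanized ones held 42, 26, 2, 1, 1 and 1, so that 2 barcodes held 93.2% of the 73 UMIs. These were the same 2 barcodes that led for Il17a, in reverse order: the first had 226 Il17a and 26 Il17f UMIs among 2436 UMIs in all, and the second 141 and 42 among 1814. The log2 ratio was 3.01 (1.82 to 4.50) over all barcodes and 1.78 (0.50 to 3.34) without the top one. Without both, 6 wild-type and 5 humanized UMIs were left (-0.84, -2.89 to 1.14), a difference not detectable at this depth.

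The second of these barcodes stood apart in other cytokine genes too. It held all 25 humanized UMIs of Il22, a cytokine often made beside IL-17 that acts on epithelium, and 42 of the 60 humanized UMIs of Cxcl2, a neutrophil chemokine gene. It was picked out after its values were seen. Wild-type T barcodes had 5 Il22 UMIs, in 2 barcodes, and 0 Cxcl2 UMIs. Neither barcode had a UMI of Trac, Cd4 or Foxp3, and the first had 1 of the regulatory T cell marker Ikzf2. The first had 2 UMIs of Blk and 1 of the gamma chain gene Trgc2, and the second had 1 of Trdc, 3 of Scart1 and 1 of Trgc4.

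**Figure D2:**
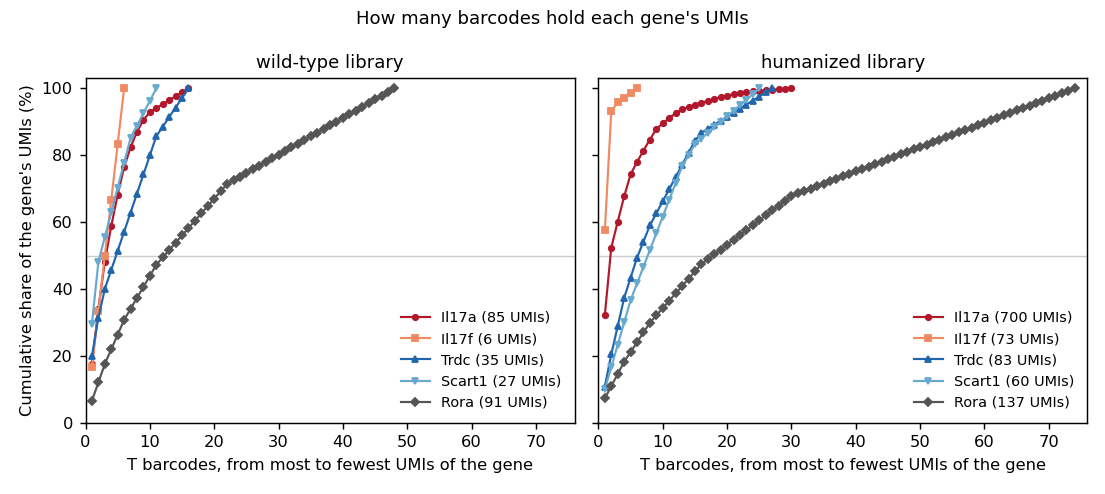
Cumulative share of a gene's UMIs (%) against T barcodes ordered from most to fewest UMIs of that gene, for 5 genes in the wild-type (left) and humanized (right) library; the grey line marks 50%. In the humanized library 1 barcode passes the line for Il17f and 2 for Il17a, against 7 for Trdc, 8 for Scart1 and 18 for Rora.

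The receptor genes of the inducing cytokines were sparse in both libraries. Il23r, the specific subunit of the interleukin-23 receptor, had 7 UMIs in 4 wild-type barcodes (4, 1, 1 and 1) and 11 UMIs in 7 humanized ones (1 to 3, median 1). Its log2 ratio was 0.058 (-1.44 to 1.66), and without the wild-type barcode that held 57.1% of its UMIs it was 1.26 (-0.66 to 3.74). Neither value could be told from 0 at this depth. Il1r1, the signalling receptor for interleukin-1, had 15 UMIs in 8 wild-type barcodes and 20 in 14 humanized ones, from 1 to 4 in each. The log2 ratio of Il1r1 was -0.18 (-1.22 to 0.89). Ccr6, the receptor for the chemokine CCL20, had 9 UMIs in 5 wild-type barcodes (5, 1, 1, 1 and 1) and 5 UMIs in 4 humanized ones (2, 1, 1 and 1). Its log2 ratio of -1.44 (-3.37 to 0.29) became -0.30 (-2.51 to 2.04) without 1 wild-type barcode, and both intervals include 0.

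Among the gamma-delta genes, Trdc was found in shares of barcodes whose intervals overlap widely. It was detected in 16 wild-type barcodes (16.7%, 9.84 to 25.6%), with 1 to 7 UMIs and a median of 2, and in 27 humanized ones (17.4%, 11.8 to 24.3%), with 1 to 9 and a median of 3. The summed levels were 189 CPM (132 to 263) and 297 CPM (236 to 368), a log2 ratio of 0.65 (0.065 to 1.27). Without the top humanized barcode the interval included 0 (0.49, -0.11 to 1.12). Scart1 was detected in 11 wild-type barcodes (11.5%, 5.86 to 19.6%) and 25 humanized ones (16.1%, 10.7 to 22.9%), with highest values of 8 and 6 UMIs. Its log2 ratio was 0.56 (-0.12 to 1.27) and rose to 1.05 (0.29 to 1.88) without 1 wild-type barcode, which held 29.6% of the wild-type UMIs.

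Blk and Rora differed from each other in how widely they were found. Blk, a kinase of B cells that gamma-delta T cells making IL-17 also use, was detected in 9 wild-type barcodes (9.38%, 4.38 to 17.05%) and 19 humanized ones (12.3%, 7.54 to 18.5%), with at most 3 UMIs. Its log2 ratio was 0.75 (-0.30 to 1.91). Of the 4 B cell markers in the matrices, Ms4a1 and Cd79a were at 0 in T barcodes of both libraries. Ighm was in 13 wild-type and 9 humanized T barcodes, and Cd79b in 1 and 6. Cd79b was in 1 of 16 and 4 of 30 barcodes with Il17a, against 0 of 80 and 2 of 125 without. Rora was detected in 48 wild-type T barcodes (50%, 39.6 to 60.4%) and 74 humanized ones (47.7%, 39.7 to 55.9%), with 1 to 6 and 1 to 10 UMIs and a median of 1. Its levels were 491 CPM (395 to 602) and 489 CPM (411 to 579), a log2 ratio of -0.0041 (-0.40 to 0.39). No barcode held over 7.30% of its UMIs, in contrast to the cytokine genes.

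Over the set, 7 of 9 members had at least 20 UMIs over both sums, which Il23r and Ccr6 missed, and Il17f passed through its humanized UMIs. Of the 7, Il17a and Il17f were at least 2-fold higher in humanized T barcodes and 0 were at least 2-fold lower, with a median log2 ratio of 0.65. Of all 3388 genes with that many UMIs, 3.22% passed the same fold upward and 5.67% downward, and their median was -0.12. Without the 2 humanized barcodes named above, only Il17a of the members was at least 2-fold higher, and Il17f was not (-0.84, with 6 and 5 UMIs). With barcodes thinned to 1000 UMIs, Trdc (1.00, 0.20 to 1.88) and Scart1 (1.63, 0.58 to 2.85) joined them.

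**Figure D3:**
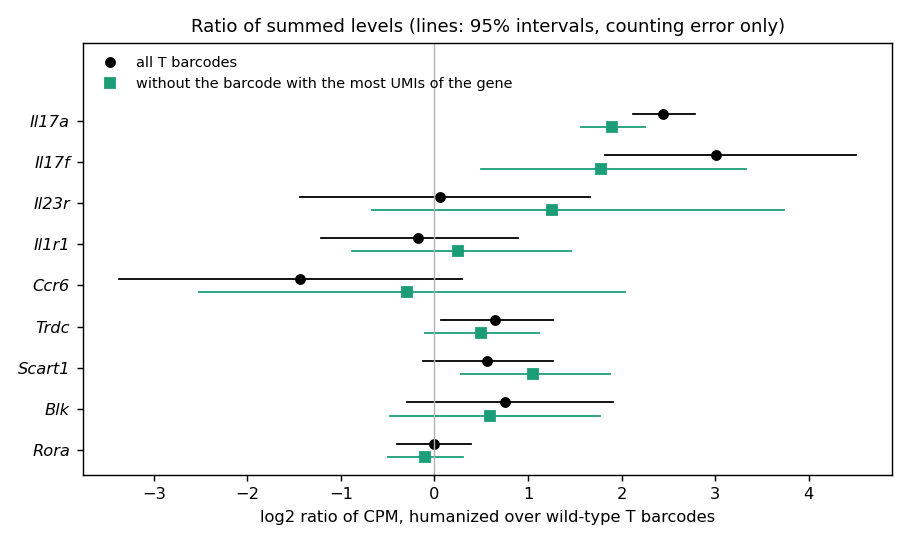
Log2 ratio of CPM, humanized over wild-type T barcodes, for each gene over all T barcodes (black circles) and without the barcode that held most of its UMIs (green squares), with 95% intervals for counting error (lines). Il17a stays above 0 in both, Rora lies close to 0, and the intervals of Il23r, Il1r1 and Ccr6 include 0 in both.

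The members were found together with Il17a in single barcodes, with Rora as the exception. Of the 8 other genes, 7 were detected at least 2-fold more often in T barcodes with an Il17a UMI than in those without, in both libraries. The rule on low values (a UMI in at least 5 T barcodes of each library) was met by 6 of the 8, and 5 of these 6 were among the 7. The same held for 2.86% of the 4583 genes that met it. Depth was similar on both sides: median UMIs were 1473.5 with Il17a and 1750.5 without in the wild-type library, and 1563.5 and 1592 in the humanized one. The members were chosen from these cells, so their count supports nothing by itself.

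Il17f was found in 5 of 16 wild-type barcodes with Il17a (31.2%, 11.0 to 58.7%) against 1 of 80 without (1.25%, 0.032 to 6.77%). In the humanized library it was in 6 of 30 (20.0%, 7.71 to 38.6%) against 0 of 125 (0 to 2.91%). Il23r went the same way, with 3 of 16 against 1 of 80 and 6 of 30 against 1 of 125, though its wild-type intervals overlap. Il1r1 was in 37.5% of wild-type barcodes with Il17a (15.2 to 64.6%) and 2.50% without (0.30 to 8.74%), and in 36.7% (19.9 to 56.1%) and 2.40% (0.50 to 6.85%) of humanized ones. Of the Il1r1-positive barcodes, 75.0% (34.9 to 96.8%) and 78.6% (49.2 to 95.3%) also held Il17a. Of the few Il23r-positive ones, 75.0% (19.4 to 99.4%) and 85.7% (42.1 to 99.6%) did. These intervals are wide. Ccr6 was in 2 of 16 and 2 of 30 barcodes with Il17a, against 3 of 80 and 2 of 125 without, with wide intervals that overlap.

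The gamma-delta genes were also found beyond the Il17a barcodes. Trdc was in 50% of wild-type barcodes with Il17a (24.6 to 75.4%) and 10.0% without (4.42 to 18.8%), and in 53.3% (34.3 to 71.7%) and 8.80% (4.47 to 15.2%) of humanized ones. Turned around, 8 of 16 wild-type and 16 of 27 humanized Trdc-positive barcodes held Il17a. Scart1 was in 4 of 16 wild-type barcodes with Il17a (25.0%, 7.27 to 52.4%) and 18 of 30 humanized ones (60.0%, 40.6 to 77.3%), with overlapping intervals, against 8.75% and 5.60% without. Its partner in the wild-type library was Trdc: 10 of 11 Scart1-positive barcodes held Trdc and 4 held Il17a, while of 25 humanized ones 18 held each. Blk was in 25.0% (7.27 to 52.4%) and 46.7% (28.3 to 65.7%) of barcodes with Il17a, against 6.25% and 4.00% without.

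Rora was not limited to barcodes with Il17a. It was in 8 of 16 wild-type barcodes with Il17a and 40 of 80 without, 50% in each. In the humanized library it was in 70.0% (50.6 to 85.3%) and 42.4% (33.6 to 51.6%), with intervals that just overlap. Its other carriers included barcodes with a UMI of Foxp3, the transcription factor gene of regulatory T cells, where it was found in 8 of 18 wild-type (44.4%, 21.5 to 69.2%) and 6 of 10 humanized barcodes (60.0%, 26.2 to 87.8%). The other 8 members were at 0 in those 18 and 10 barcodes, with intervals that reach 18.5% and 30.8%. Their shares over all T barcodes, at most 16.7% and 19.4%, lie within these intervals. The share of all genes at 0 there was not computed, so nothing is read from this. Among the 32 wild-type and 46 humanized barcodes with Foxp3 or Ikzf2, another regulatory T cell marker, 3 and 7 held Il17a, all of them with Ikzf2 and without Foxp3. Ikzf2 was not particular to either side, in 18.75% and 23.3% of barcodes with Il17a against 26.25% and 28% without.

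**Figure D4:**
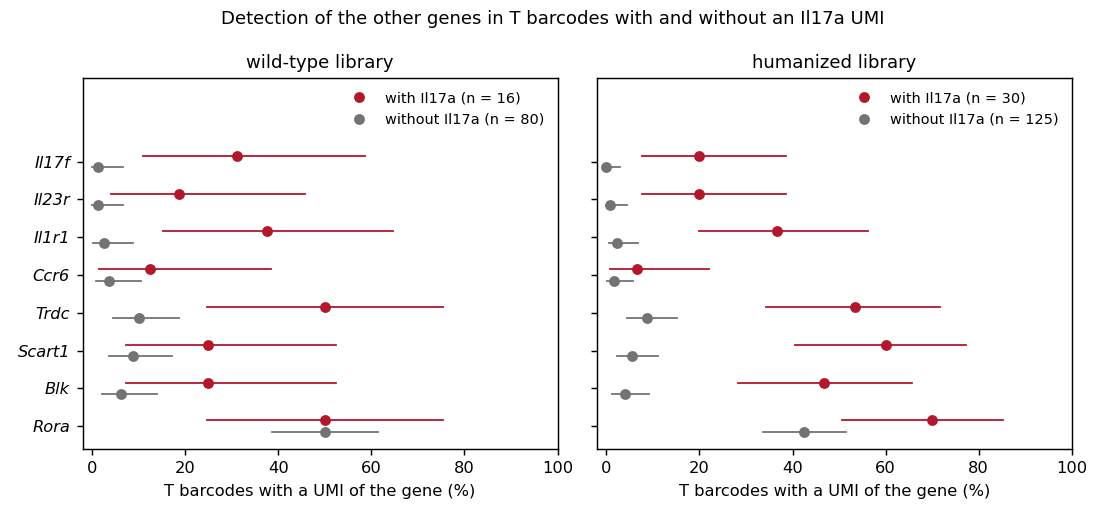
Share of T barcodes with a UMI of each gene (%), among those with an Il17a UMI (red) and those without (grey), in the wild-type (left, 16 and 80 barcodes) and humanized library (right, 30 and 125), with 95% binomial intervals (lines). Red and grey intervals are apart for Il17f, Il1r1 and Trdc in both libraries and overlap for Ccr6 and Rora in both.

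Counted per barcode, at least 2 of the other 8 members were detected in 12 of 16 wild-type (75.0%) and 27 of 30 humanized barcodes with Il17a (90.0%), against 15.0% and 7.20% of those without. At least 3 others were found in 6 of 16 and 22 of 30. The members were chosen from such cells, so these counts are a description only. The most was 5 others, in both libraries. A wild-type barcode of 2920 UMIs, for example, held 8 UMIs of Il17a, 4 of Il23r, 2 of Il1r1, 2 of Trdc, 5 of Scart1 and 5 of Rora. A humanized barcode of 1720 UMIs held 54 of Il17a, 3 of Il23r, 1 of Il1r1, 5 of Trdc, 4 of Scart1 and 1 of Rora. The latter also held 5 UMIs of Trac. Both were chosen after their values were seen, as the barcode of each library with 5 other members and the most Il17a. A humanized barcode of 1310 UMIs without Il17a also held 5 members, with 4 UMIs of Il1r1, 3 of Trdc, 1 of Scart1, 2 of Blk and 2 of Rora.

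Gamma-delta chain transcripts were detected more often in barcodes with Il17a than in those without, and Trac less often. A UMI of Trdc or of a gamma constant gene (Trgc1, Trgc2 or Trgc4) was found in 11 of 16 wild-type (68.8%, 41.3 to 89.0%) and 21 of 30 humanized ones (70.0%, 50.6 to 85.3%), against 11.2% in each library without Il17a. Trac, the alpha chain constant region, was in 4 of 16 (25.0%, 7.27 to 52.4%) and 7 of 30 (23.3%, 9.93 to 42.3%), against 62.5% and 58.4% without. Beta chain constant transcripts (Trbc1 or Trbc2) were present on both sides, in 87.5% and 90.0% of barcodes with Il17a and 80.0% and 85.6% of those without. A gamma-delta chain without Trac was found in 62.5% (35.4 to 84.8%) and 60.0% (40.6 to 77.3%) of barcodes with Il17a, against 8.75% and 8.80% without. Cd4 was in 2 of 16 and 0 of 30. Foxp3, Ifng, Cd8a and Cd8b1 were at 0 in all 16 (0 to 20.6%) and all 30 (0 to 11.6%). In barcodes without Il17a, Foxp3 was in 22.5% (13.9 to 33.2%) and 8% (3.90 to 14.2%), with intervals that overlap these. Cd8a or Cd8b1 was in only 1 of 80 and 3 of 125 barcodes without Il17a. Nothing is therefore read from these zeros.

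**Figure D5:**
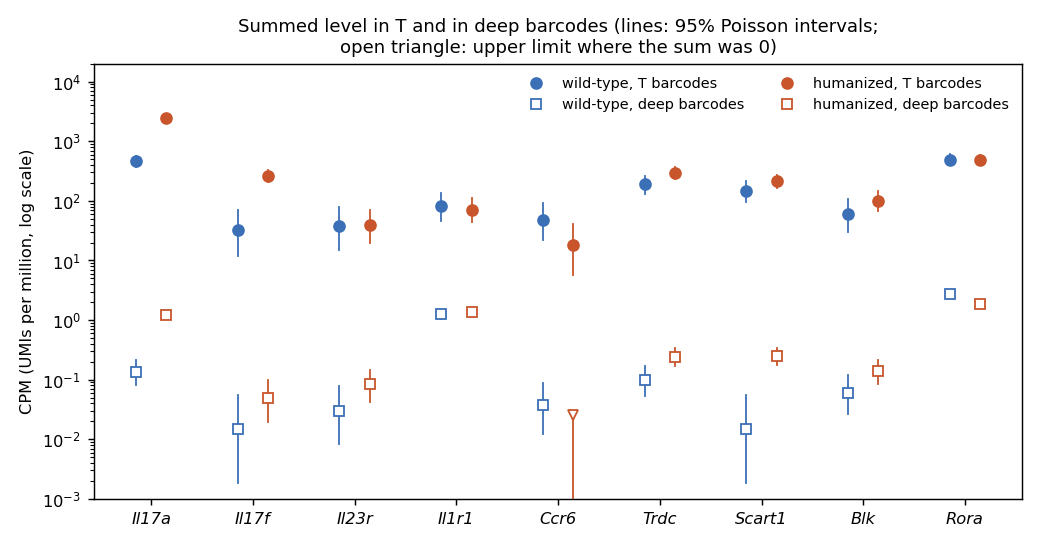
Summed level of each gene in CPM (log axis) in T barcodes (filled circles) and deep barcodes (open squares) of the wild-type (blue) and humanized (orange) library, with 95% Poisson intervals (lines); the open triangle is the upper limit for Ccr6, which had 0 UMIs in humanized deep barcodes. T barcodes are above deep ones for all 9 genes in both libraries, by the least for Il1r1 and Rora.

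In deep barcodes, which have medians of 16915.5 and 12568 UMIs, all 9 genes were far lower. All 9 were at least 10-fold above deep barcodes in both libraries. So were 13.1% of the 3388 genes with at least 20 UMIs over both T sums, a minimum that Il23r and Ccr6 missed. T barcodes were chosen by CD3 UMIs, so genes of T cells had to differ. Il17a was at 0.14 CPM (0.081 to 0.22) in wild-type and 1.23 CPM (1.05 to 1.42) in humanized deep barcodes, or 3358-fold (2002 to 5935) and 2039-fold (1727 to 2419) below T barcodes. Thinned to 1000 UMIs, Il17a was detected in 13.5% of wild-type T barcodes against 0.029% of deep ones, and in 17.4% against 0.051% in the humanized library. Unthinned, 0.235% and 0.819% of deep barcodes had an Il17a UMI. The ratios were smallest for Il1r1, at 65.0-fold (35.6 to 111) and 51.8-fold (31.0 to 82.2), and for Rora, at 178-fold (140 to 225) and 262-fold (211 to 322). Ccr6 was 859-fold higher in humanized T barcodes when the 0 UMIs in deep ones were set to 3, with a lower limit of 472.5.

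The low Il17a signal in deep barcodes was higher in the humanized library as well. It had 18 wild-type and 177 humanized UMIs there, a log2 ratio of 3.17 (2.46 to 3.96). One humanized deep barcode held 55 of the 177, together with 9 CD3 UMIs. Deep barcodes with a CD3 UMI held 4 wild-type and 104 humanized Il17a UMIs, and those without CD3 held 14 UMIs in 14 barcodes and 73 UMIs in 69. Trdc (1.30, 0.34 to 2.34) and Scart1 (2 and 36 UMIs, 4.04, 2.08 to 7.14) were higher in humanized deep barcodes too, while Rora was lower (-0.56, -0.79 to -0.33). Blk had 8 and 20 UMIs there (1.19, -0.054 to 2.58). These 4 were at least 2-fold higher and 0 of the 6 members measured by that UMI minimum (20) were lower by that much, but the 4 reached that number only through the humanized library, so nothing is read from their count. Of all 17304 genes, 0.699% were that much higher and 6.83% lower. How far free RNA or barcodes holding 2 cells contribute was not tested.

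Other genes of the IL-17 pathway were read from lists, with counts of members that had at least 20 UMIs in T barcodes. Of the 14 regulators 8 were measured, and 0 were 2-fold apart either way (median -0.077). Zbtb16, which encodes PLZF of innate-like T cells, had 6 and 13 UMIs and was in 3 of 16 and 8 of 30 barcodes with Il17a against 3 of 80 and 2 of 125 without. Sox13, a gamma-delta T cell regulator, was in 1 of 16 and 8 of 30 against 1 of 80 and 2 of 125. Not all regulators went this way. Ahr was in 0 of 16 and 0 of 30 against 2 of 80 and 10 of 125, with overlapping intervals. Sox4 was in 0 of 16 and 0 of 30 against 1 of 80 and 7 of 125, also with overlapping intervals. Zbtb16, Sox13, Ahr and Sox4 were named after their values were seen. Maf, which is used by several T cell types, had 75 and 62 UMIs (-0.87, -1.38 to -0.36).

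Of 11 cytokine genes 4 were measured, and 2 were at least 2-fold higher in humanized T barcodes, both of which reached 20 UMIs only through that library. Over all genes the shares were 3.22% higher and 5.67% lower. One was Il22, which rests on the single barcode described above. The other was Ifng, the type 1 cytokine gene, with 8 and 243 UMIs (4.33, 3.33 to 5.56). One humanized barcode held 143 of them and another held 70, so most lay in these few cells. Without the first the log2 ratio was 3.065 (2.03 to 4.32), and it was not computed without both. No T barcode held both Ifng and Il17a, but Ifng was in only 5 wild-type and 11 humanized T barcodes. Its intervals among barcodes with Il17a (0 to 20.6% and 0 to 11.6%) include its shares without Il17a (6.25% and 8.80%). Nothing is therefore read from the lack of overlap. Areg, the growth factor amphiregulin, had 55 and 48 UMIs (-0.79), and Tnf had 12 and 13. Of 11 cytokine receptor genes 5 were measured, with 0 at least 2-fold higher and 1 lower, Il18rap (15 and 11 UMIs, -1.04, -2.31 to 0.18). Of 7 homing receptor genes 5 were measured and 0 were 2-fold apart. Cxcr6, a receptor of tissue-resident T cells, had 74 and 117 UMIs (0.067, -0.37 to 0.51) and was in 62.5% and 70.0% of barcodes with Il17a against 32.5% and 29.6% without.

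Of 12 genes known from gamma-delta T cells that make IL-17, 10 were found under the names searched and 8 were measured. Of these 0 were at least 2-fold higher and 1 lower, Aqp3 (14 and 10 UMIs, -1.08, -2.41 to 0.20), and their median log2 ratio was -0.55, against -0.12 over all genes. Serpinb1a (17 and 32 UMIs, 0.32, -0.57 to 1.26) and Cd9 (34 and 55 UMIs, 0.10, -0.54 to 0.76) were above 0 with intervals that include it. Tmem176a had 25 and 26 UMIs (-0.54, -1.39 to 0.31) and Tmem176b had 51 and 52 (-0.57, -1.15 to 0.020). The gamma chain constant gene Trgc1 had 13 and 31 UMIs (0.66, -0.32 to 1.72), and it was the 1 measured gene of the 3 gamma-delta receptor genes found under the names searched.

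The IL-17 receptor genes were present in deep barcodes, whose cell types were not assigned here. Il17ra was at 14.6 CPM in wild-type and 11.4 CPM in humanized deep barcodes, and Il17rc, which pairs with it, at 12.1 and 11.0 CPM. Of 6 receptor and signalling genes, all measured there, 0 were 2-fold apart. Of 13 genes known to be induced by IL-17, 8 were measured, with 4 at least 2-fold higher in humanized deep barcodes and 1 lower, where all genes gave 0.699% and 6.83%. The higher ones were Cxcl1, a neutrophil chemokine gene, at 27.8 and 70.0 CPM (1.33), Csf3 (6 and 18 UMIs), S100a8 (3 and 34 UMIs) and S100a9 (4 and 45 UMIs). The lower one was Il6 (31 and 13 UMIs, -1.38). S100a8, S100a9 and Csf3 reached 20 UMIs only through the humanized library, so nothing is read from the count of higher genes. S100a8 and S100a9 are also neutrophil markers, and the other 3 neutrophil markers together had 66 wild-type and 51 humanized UMIs in deep barcodes. Of these 3, Retnlg had UMIs only in the humanized deep barcodes. In T barcodes the 1 measured gene of this list was Cxcl2, with 0 and 60 UMIs. With 0 set to 3, its log2 ratio was 3.73 (lower limit 3.385), and 2.00 (lower limit 1.55) without its top barcode. In deep barcodes Ccl2, which draws in monocytes, was at 112 and 195 CPM (0.80) and Ccl7 at 40.1 and 64.8 CPM (0.69). Whether these values are tied to Il17a was not tested, since each genotype has 1 library.

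Of 7 genes for inducing cytokines and related factors, Tgfb1 was the 1 measured in T barcodes, with 14 and 31 UMIs (0.55, -0.40 to 1.58). Tgfb1, which encodes transforming growth factor beta 1, was at 13.6 and 11.8 CPM in deep barcodes, and Il7, a T cell survival cytokine gene, had 119 and 105 UMIs there. Il12b, the subunit shared by interleukin-12 and interleukin-23, had 0 UMIs in T and deep barcodes of both libraries. Il23a had 13 and 11 UMIs and Il1b had 6 and 49 among the deep barcodes, and both had 0 in T barcodes. Ccl20, the ligand gene of Ccr6, was not listed for either library.

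Outside the members, the genes detected most like Il17a were ranked by the phi coefficient between having a UMI of a gene and having an Il17a UMI, taking the lower of both libraries. Phi runs from -1 to 1, and the points are 96 and 155 barcodes that share a library and differ in depth. Its median over 4583 genes was -0.061. Tmem176a (0.41) and Tmem176b (0.39), which encode a pair of related membrane proteins, came first, then Scart2 (0.37), a relative of Scart1. Scart2 was not searched under this name in the lists above. Its level was lower in the humanized library, at 162 CPM in wild-type and 42.9 CPM in humanized T barcodes. Tmem176b was found in 56.2% and 66.7% of barcodes with Il17a against 13.8% and 8.80% without. Next were Smox, the spermine oxidase gene (0.29), Prelid2 (0.26), Aqp3, a water and glycerol channel gene (0.25), Arrb1, which encodes beta-arrestin 1 (0.24), and Igf1r, the receptor for insulin-like growth factor 1 (0.24). Il17re, a receptor subunit for IL-17C, and Lax1, an adaptor gene of lymphocyte signalling, were at 0.24, level with Ly6g5b and Trgc1. In deep barcodes Prelid2 was at 40.7 and 36.3 CPM and Igf1r at 38.0 and 37.3 CPM, while Scart2, Il17re and Lax1 were between 0.014 and 0.069 CPM. Among the members, Il1r1 (0.47), Il17f (0.41) and Trdc (0.40) would stand in the first 4 places of this ranking, Blk (0.24) and Scart1 (0.19) follow, and Rora was at 0. Il23r (0.33) and Ccr6 (0.13) were in too few barcodes to be ranked.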

How the data were processed

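Single-cell cDNA libraries of MC38 tumours, 1 per genotype, were analysed. Oligo libraries of the same samples are not analysed here. The authors deposited unnormalised UMI counts, which came from PISA 1.0 per the file headers. The submitters' processing notes name the build GRCm39. The aligner, annotation and cell-calling rule were not given in the sources used here. The libraries hold 134214718 and 147738781 UMIs, with a lowest barcode of 1001 UMIs in each, and 22649 genes are listed for both.

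UMIs were summed over T barcodes (under 5000 UMIs, at least 1 Cd3e, Cd3d or Cd3g UMI) and deep barcodes (5000 or more) and divided by all UMIs of those barcodes. No mitochondrial filter or doublet caller was used; mitochondrial genes were at most 0.268% of UMIs. Levels have exact Poisson intervals, shares Clopper-Pearson intervals and ratios exact conditional intervals, at 95%. A sum of 0 was set to 3 counts in a ratio. Cells are not replicates, and each genotype has 1 library, so nothing was tested. The members and gene lists were chosen with earlier results of these data known. The text names all members and the 10 genes most like Il17a. List genes could be named from 20 UMIs in T barcodes or when their list was read in deep barcodes, and examples are given. Zbtb16, Sox13, Ahr and Sox4 are exceptions. A result on a list gene is not reported here. Python 3.11.15, numpy 2.4.6 and scipy 1.17.1 were used, and scripts were tested on simulated data. Alternatives were other UMI and CD3 gates, thinning, other denominators and weights, other thresholds, and leaving out top barcodes.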

Additional observations from a re-analysis of the deposited data

How the results depend on the processing

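Of 51 recomputed values, 43 stayed within the interval of the reported value or within 1.5-fold of the reported count. The Il17a log2 ratio of 2.45 kept its direction in all 8 alternatives. It was 2.06 with T barcodes under 8000 UMIs, 1.90 without the top barcode, 1.96 after thinning, 1.815 with equal weights and 1.40 without the 2 top humanized barcodes, the last chosen after seeing the data. The count of members at least 2-fold higher was 4 after thinning and 1 without those 2 barcodes, in place of 2. With a minimum of 10 UMIs, 1 member, Ccr6, was at least 2-fold lower, in place of 0. Shares with Il17a ranged from 13.5 to 19.05% in the wild-type and from 17.4 to 19.4% in the humanized library. The count co-detected with Il17a was 6 or 7, and all 9 members stayed above deep barcodes. No paired analysis was possible because each genotype has 1 library. Depth limits Il23r and Ccr6 most, with under 20 UMIs over both libraries.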
